A study of Mus musculus with 5 samples.

Results

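The immune cells of B16-F10 tumors, a mouse melanoma, were compared between an anti-PD1-IL15 protein fusion and anti-PD1 alone. B16-F10 cells, 500000 per mouse, had been placed under the skin. Tumors were taken on day 11, digested with enzymes, and living leukocytes were sorted by CD45. About 16000 cells per library were loaded for droplet sequencing from the 5′ end of transcripts. Each treatment has 1 library, so neither side has a replicate, and every value below describes these libraries. The other treatments, an IL15 superagonist and its combination with anti-PD1, are quoted only for reference, and the PBS library was not used. The title of the combination library names the superagonist, while its treatment tag reads IL15. By the labels, treatment came after tumor resection, so the time between dosing and sampling cannot be read from them. The sources used here do not give the strain, the number of mice behind a library, the doses or the antibody clone.

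All cell barcodes with at most 10% of their unique molecular identifiers (UMIs) from mitochondrial genes were kept. This gave 15949 cells, 8657 of the fusion library and 7292 of the anti-PD1 library, of 37074 in the series. The fusion library was deeper, with 81565425 UMIs and a median of 7927 per kept cell against 50251271 and 5687.5. Barcodes found in both libraries numbered 101. At least 1 UMI of Ptprc, which encodes CD45, was found in 92.2% of fusion cells and 87.8% of anti-PD1 cells, and at an equal depth of 2000 UMIs per cell in 58.1% and 61.0%. At least 10 UMIs of melanocyte genes were carried by 2 fusion cells and 5 anti-PD1 cells.

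Cells were sorted into gates by marker UMIs. T cells carried Cd3d or Cd3e and were split by Cd8a or Cd8b1 (CD8 T), Cd4 (CD4 T) and Foxp3 (regulatory T, Treg). Natural killer (NK) cells carried Ncr1 without Cd3. Macrophages carried C1qa to C1qc, monocytes Ly6c2 or Chil3, and dendritic cells Xcr1 (cDC1) or Cd209a (cDC2). A barcode with markers of both lymphoid and myeloid cells was set aside as mixed. Levels are the summed UMIs of a gate scaled to 1000000 (CPM), which compare a gene between libraries and not 1 gene with another. Intervals in parentheses are exact 95% intervals (Clopper-Pearson for shares, conditional binomial for ratios) and cover counting error only. A gene was called when its level differed at least 2-fold, which is a size and not a test.

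Interleukin 15 drives growth and survival of CD8 T and NK cells through Il2rb, Il2rg and the factor STAT5. PD-1, encoded by Pdcd1, is a brake on T cells that have met antigen, and antibodies that block it release them. A protein that joins the cytokine to an antibody against PD-1 can therefore bind cells that carry PD-1. Activated CD8 T and NK cells kill through perforin and granzymes, proteases that enter the target cell.

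CD8 T cells made up most of the fusion library, and CD4 T, Treg, NK, macrophage, monocyte and dendritic cells were smaller shares there than in the anti-PD1 library. The CD8 T gate held 1158 anti-PD1 cells, or 15.9% (15 to 16.7), and 6602 fusion cells, or 76.3% (75.4 to 77.2), a share 4.80 times as high (4.51 to 5.12). With each cell thinned to 2000 UMIs the shares were 15.4% and 70.2%. The IL15 superagonist and combination libraries held 30.3% and 38.7%. The CD8 T gate of the fusion library was thus larger than that of any other library quoted.

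Regulatory T cells, which restrain other T cells, were 165 cells or 2.26% (1.93 to 2.63) with anti-PD1 and 18 cells or 0.208% (0.123 to 0.328) with the fusion. Their share was 10.9-fold lower (6.68 to 18.8). Cells with Foxp3 and at least 2 UMIs of Cd8a or Cd8b1 were placed in another gate and are not counted here. CD4 T cells without Foxp3 were 1.65% (1.37 to 1.96) and 0.497% (0.360 to 0.668). The number of CD8 T cells per Treg cell was 7.02 (5.96 to 8.31) with anti-PD1 and 367 (232 to 619) with the fusion, beside 34.9 and 22.8 in the IL15 superagonist and combination libraries. NK cells were 4.5% (4.03 to 5.0) and 2.06% (1.77 to 2.38), so the share of this other IL-15 responsive class was 2.19-fold lower (1.82 to 2.64). In the IL15 superagonist library NK cells were 12.9%.

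Macrophages were 21.6% (20.6 to 22.5) of anti-PD1 cells and 4.18% (3.77 to 4.62) of fusion cells. Monocytes were 15.6% (14.8 to 16.5) and 2.39% (2.08 to 2.74). The cDC1 gate, cells that present antigen to CD8 T cells, held 1.30% and 0.347%, and the cDC2 gate held 2.18% and 0.127%. Because shares sum to the whole library, a larger CD8 T share leaves less for the other gates together. Counted within the macrophage, monocyte and dendritic gates alone, macrophages were 53.0% (51.2 to 54.8) and 59.3% (55.3 to 63.3), monocytes 38.4% (36.6 to 40.2) and 33.9% (30.2 to 37.8), cDC1 3.20% (2.60 to 3.90) and 4.92% (3.34 to 6.95), and cDC2 5.36% (4.58 to 6.23) and 1.80% (0.904 to 3.20). The ratios of these shares had intervals that held 1 for macrophages (0.995 to 1.26), monocytes (0.758 to 1.03) and cDC1 (0.983 to 2.34), and only the cDC2 share was lower beyond its interval. Within the T and NK gates the CD8 T share was 50.2% and 86.5%, the Treg share 7.16% and 0.236%, and the NK share 14.2% and 2.33%. T cells with no coreceptor UMI were 6.49% and 7.0% of all cells. T cells with Cd4 or Foxp3 and at least 2 UMIs of Cd8a or Cd8b1 formed a gate of both coreceptors. It held 0.837% and 2.11%, or 61 and 183 cells. The part of them with Foxp3 is not given here, so Treg cells may be among them. Cells in no gate were 24.6% with anti-PD1 and 3.34% with the fusion, or 1792 and 289 cells. Their summed markers were at 3464 and 2585 CPM for monocytes, 1945 and 992 for macrophages and 121 and 213 for T cells. NK markers were at 3543 and 3795 CPM, of which 1 gene held 3146 and 3228. Markers of cDC2 were at 20782 and 19303 CPM, of which 1 gene held 16027 and 15598. Those of cDC1 were at 1158 and 1084 CPM and of mature dendritic cells at 798 and 492. Plasmacytoid dendritic cell markers were at 889 and 682 CPM and neutrophil markers at 1092 and 404. The shares within the macrophage, monocyte and dendritic gates, that of cDC2 included, leave these cells out. Fewer cells of 1 class and more cells of another cannot be told apart from shares, and no absolute cell number per tumor was analysed here.

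**Figure D1:**
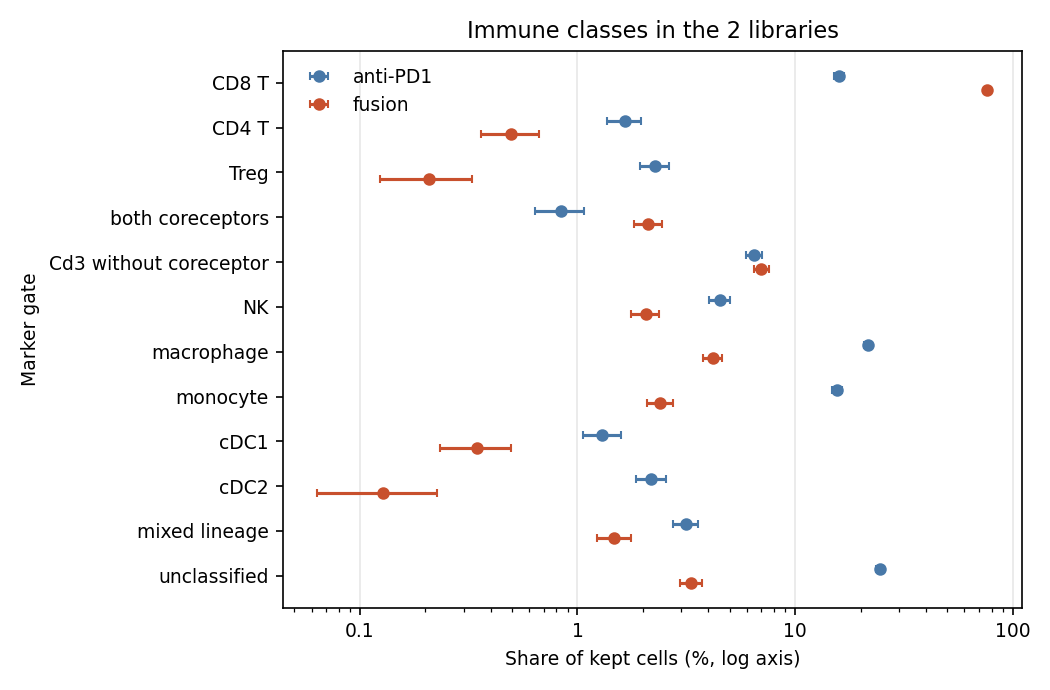
Share of kept cells in each marker gate (percent, log axis) for the anti-PD1 library (blue) and the fusion library (orange), with exact Clopper-Pearson 95% intervals as bars. The CD8 T gate lies at 15.9% and 76.3%, while Treg, monocyte, macrophage, cDC1, cDC2 and NK gates lie further left in the fusion library.

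Within CD8 T cells, 7068 genes were above the level minimum (a mean of at least 10 CPM and at least 30 UMIs over both libraries). Of these 119, or 1.68%, were at least 2-fold higher in the fusion library and 351, or 4.97%, were at least 2-fold lower (median log2 ratio -0.05). By the rule for named genes, the higher genes began with Ifitm1, Ifitm2 and Gstm5 and held the granzymes Gzmd to Gzmg. The lower genes began with Tff1, Penk and the chemokine Ccl3 and held the receptors Ccr7, Cxcr4 and Cx3cr1 and the factor Tcf7. With CPM averaged per cell in place of summed, the split was 211 higher and 372 lower.

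The first higher genes by the rule were the interferon-induced transmembrane genes Ifitm1 (chr7:140967221-140969825) and Ifitm2 (chr7:140954837-140955987), known for blocking the entry of viruses into cells. Ifitm1 was at 133 CPM with anti-PD1 and 2442 CPM with the fusion, 18.4-fold higher (17.4 to 19.5). The IL15 superagonist and combination libraries had 115 and 134 CPM, so the fusion library alone of these 4 was high. At equal depth, 4.23% of anti-PD1 and 53.4% of fusion CD8 T cells carried an Ifitm1 UMI, and without thinning 6.74% and 62.7%. In the anti-PD1 library 1 cell held 17.9% of the Ifitm1 UMIs. Median UMIs per CD8 T cell were 6012 and 8921, and no gate free of Ifitm1 could serve as a background. Ifitm2 was at 93.3 and 1203.8 CPM, 12.9-fold higher (12 to 13.8), beside 96.3 and 93.3 CPM in the IL15 superagonist and combination libraries. With the listed markers alone and no guard against mixed cells, the Ifitm2 ratio was 5.36.

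The difference in Ifitm1 was not shared by all gates. NK cells had 92.1 and 288 CPM and CD4 T cells 188 and 475 CPM, in the order anti-PD1 and fusion, so Ifitm1 was higher in the fusion library there too. Macrophages had 403 and 123 CPM and monocytes 501 and 185 CPM, both in the opposite direction. The Ifitm and Schlafen list had 7 tested members in CD8 T cells, of which Ifitm1 and Ifitm2 were at least 2-fold higher and none lower (median log2 ratio 0.61). The other type I interferon genes did not follow Ifitm1. Of 18 tested members of that list, 0 were at least 2-fold higher and 4 at least 2-fold lower (median log2 ratio -0.54, with 16 of 18 below equal levels). These 4 were Ifi27l2a, at 779 and 249.5 CPM, and Zbp1, Oas1a and Stat2, at ratios of 0.491, 0.499 and 0.499.

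The promoters of Ifitm1, Ifitm2 and Isg15 are shown because the first and second stood apart from the interferon list in CD8 T cells while Isg15 belongs to it. They are RefSeq sequences on GRCm38.p6, up to 250 bases before the start of the gene in RefSeq, read 5′ to 3′ on the gene's strand, without bases that GENCODE places in an exon. GENCODE starts Ifitm1 further upstream, so the Ifitm1 window lies inside the gene as GENCODE draws it, between exons. Capitals mark GAAANNGAAA, the core of the interferon-stimulated response element, searched on both strands and overlaps included. It was found in 2.98% of 32851 promoters of this length. The windows are chr7:140967826-140968027 on the plus strand for Ifitm1, chr7:140955988-140956211 on the minus strand for Ifitm2 and chr4:156200819-156201068 on the minus strand for Isg15.
Ifitm1: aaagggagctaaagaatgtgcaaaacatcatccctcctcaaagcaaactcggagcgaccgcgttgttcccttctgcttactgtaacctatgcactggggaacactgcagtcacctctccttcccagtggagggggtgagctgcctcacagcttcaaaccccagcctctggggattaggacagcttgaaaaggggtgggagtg
Ifitm2: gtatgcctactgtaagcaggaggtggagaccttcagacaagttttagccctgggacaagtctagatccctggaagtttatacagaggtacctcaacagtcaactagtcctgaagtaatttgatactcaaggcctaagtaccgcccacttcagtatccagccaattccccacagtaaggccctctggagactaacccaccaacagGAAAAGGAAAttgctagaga
Isg15: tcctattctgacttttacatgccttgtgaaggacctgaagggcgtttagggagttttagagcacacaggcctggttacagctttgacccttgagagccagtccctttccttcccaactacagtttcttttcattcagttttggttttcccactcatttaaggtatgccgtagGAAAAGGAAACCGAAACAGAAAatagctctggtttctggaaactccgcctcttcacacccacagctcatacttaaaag
The Ifitm1 window held no match, which says nothing of sequence before the GENCODE start, Ifitm2 held 1, starting 46 bases before the gene's start, and Isg15 held 3 overlapping matches from 78, 72 and 66 bases before it. A match is a description of the letters and not a measured binding site.

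The granzyme cluster of chromosome 14 was higher throughout in fusion CD8 T cells. Gzmb (chr14:56258838-56262260), the granzyme best known for starting apoptosis in target cells, was at 1817.5 CPM with anti-PD1 and 3890.3 CPM with the fusion, a ratio of 2.14 (2.11 to 2.18). At 2000 UMIs per cell the median CD8 T cell carried 1 Gzmb UMI with anti-PD1 and 5 with the fusion. Gzmf (chr14:56205263-56211417) was at 299 and 2754 CPM, 9.22-fold higher (8.87 to 9.59), and the IL15 superagonist and combination libraries both had 253 CPM. Gzmc (chr14:56231441-56234656) was at 268 and 1559.5 CPM, 5.83-fold higher (5.59 to 6.07).

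Gzmd (chr14:56129556-56132608) was at 90.6 and 611 CPM, 6.74-fold higher (6.28 to 7.24). Gzme (chr14:56117626-56120625) was at 90.1 and 544 CPM, 6.03-fold higher (5.62 to 6.48). In the anti-PD1 library Gzmd, Gzme and Gzmf were found in 34, 38 and 83 of 1158 CD8 T cells. There 1 cell held 26.3%, 17.5% and 18.7% of their UMIs, which the intervals do not cover. Gzmg (chr14:56156582-56159579) was at 5.86 and 75.9 CPM, but its anti-PD1 value came from 51 UMIs, 52.9% of them in 1 cell. Transcripts of Gzmd and Gzme are 93.5% identical and those of Gzmf and Gzmg 88.5%, so the split of reads among these 4 genes is uncertain. Gzma, encoded elsewhere, was at 215 and 912 CPM, 4.25-fold higher (4.06 to 4.45), with the IL15 superagonist and combination libraries near the fusion at 1072.8 and 1051.6 CPM.

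Perforin did not go with the granzymes. Prf1, which forms the pore through which granzymes enter, was at 409 and 303 CPM, a ratio of 0.740 (0.714 to 0.767). Of the 18 tested members of the granzyme and perforin list, 7 were at least 2-fold higher, namely Gzma to Gzmg, and 0 lower (median log2 ratio 0.57). Gzmk was at 161 and 138 CPM, and Fasl, the death ligand, at 95.6 and 136 CPM, both inside 2-fold.

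Promoters of Gzmb, Gzmc, Gzmd and Gzmf are shown to set the moderate member of the cluster beside 3 with larger ratios. Capitals mark TGTGGTT, a site for RUNX factors (4.4% of 32851 promoters), and TGANTCA, a site for AP-1 factors (6.75%), both searched on both strands, and AACCACA is TGTGGTT read from the other strand. The windows, all on the minus strand, are chr14:56262335-56262584 for Gzmb, chr14:56234658-56234907 for Gzmc, chr14:56132609-56132843 for Gzmd and chr14:56211418-56211657 for Gzmf.
Gzmb: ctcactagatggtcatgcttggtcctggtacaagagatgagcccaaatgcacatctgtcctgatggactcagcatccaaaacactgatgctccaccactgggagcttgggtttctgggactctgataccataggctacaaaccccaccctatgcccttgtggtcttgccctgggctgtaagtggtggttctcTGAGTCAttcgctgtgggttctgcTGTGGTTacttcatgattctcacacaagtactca
Gzmc: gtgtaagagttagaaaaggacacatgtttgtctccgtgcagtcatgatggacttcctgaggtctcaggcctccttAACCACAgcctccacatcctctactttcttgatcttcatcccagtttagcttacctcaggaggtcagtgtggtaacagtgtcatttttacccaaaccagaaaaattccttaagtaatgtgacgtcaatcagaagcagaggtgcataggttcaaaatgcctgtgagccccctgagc
Gzmd: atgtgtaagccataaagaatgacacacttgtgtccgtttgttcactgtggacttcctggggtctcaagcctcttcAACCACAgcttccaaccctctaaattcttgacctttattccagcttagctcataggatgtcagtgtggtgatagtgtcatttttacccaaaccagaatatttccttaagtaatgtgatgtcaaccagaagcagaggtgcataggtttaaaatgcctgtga
Gzmf: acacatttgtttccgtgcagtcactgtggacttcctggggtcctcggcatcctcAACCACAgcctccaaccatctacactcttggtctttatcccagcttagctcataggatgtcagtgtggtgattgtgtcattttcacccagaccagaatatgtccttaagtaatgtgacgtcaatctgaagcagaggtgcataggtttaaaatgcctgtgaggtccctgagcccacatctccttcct
TGANTCA was found in the window of Gzmb only among Gzmb to Gzmg, 58 bases before the start. TGTGGTT lay 34 bases before the start of Gzmb, and on the other strand at 175, 175 and 196 bases in Gzmc, Gzmd and Gzmf. Promoter identity was 80.5% between Gzmc and Gzmd, 94.8% between Gzmd and Gzme, and 43.1% between Gzmb and Gzmc.

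The cluster was also carried by more cells. At equal depth at least 1 of Gzmc to Gzmg was found in 10.5% (8.83 to 12.4) of anti-PD1 CD8 T cells and 58.9% (57.7 to 60.1) of fusion CD8 T cells, beside 13.5% and 10.6% in the IL15 superagonist and combination libraries. At least 3 of these genes were found in 1.64% and 20.8%. As a background, Gzmc UMIs were found in 0.254% of anti-PD1 and 9.67% of fusion macrophages at that depth, against 7.34% and 40.5% of CD8 T cells. The median UMIs before thinning were 7452 and 6707.5 in macrophages and 6012 and 8921 in CD8 T cells.

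**Figure D2:**
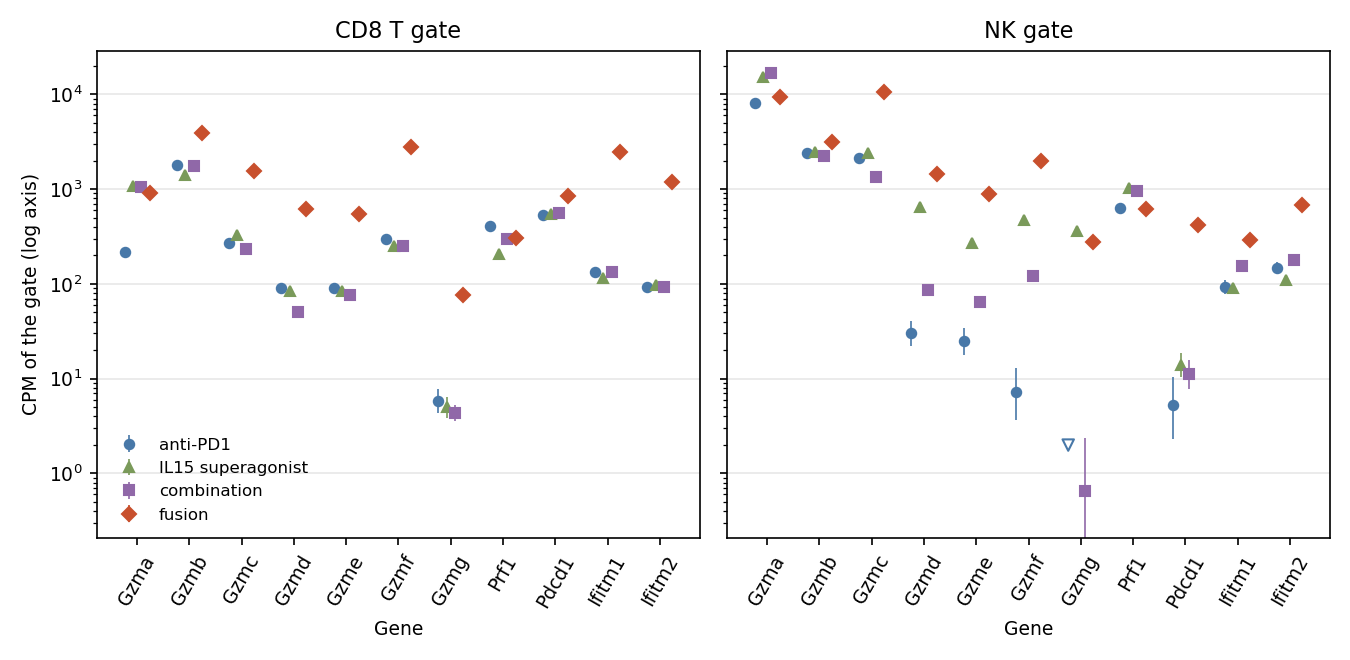
Levels (CPM of the gate, log axis) of granzymes, Prf1, Pdcd1, Ifitm1 and Ifitm2 in CD8 T cells (left) and NK cells (right) of the anti-PD1, IL15 superagonist, combination and fusion libraries, with exact Poisson 95% intervals. An open triangle marks the level of 3 counts where none was found, as for Gzmg in anti-PD1 NK cells. In CD8 T cells the fusion lies apart from the other 3 libraries for Gzmb to Gzmg and both Ifitm genes, and not for Gzma.

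Within the fusion library, cells with Gzmf carried Ifitm1, Gzmc and Prf1 more often than cells without it. Ifitm1 was found in 65.4% (63.6 to 67.2) of the 2776 fusion CD8 T cells with Gzmf and in 44.7% (43.2 to 46.3) of the 3826 without. Gzmc was found in 65.1% of cells with Gzmf and 22.7% of cells without, and Prf1 in 41.2% and 25.9%. Ccl5 went the other way, at 52.5% and 70.0%. In the anti-PD1 library Gzmf cells were few, and Ifitm1 was found in 0 of 55 cells with Gzmf, which allows up to 6.49%, and in 4.44% of those without. All these shares are at 2000 UMIs per cell, and cells of 1 library are not replicates.

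Cell-cycle genes were higher in fusion CD8 T cells. Of 35 tested members, 8 were at least 2-fold higher and 0 lower, 32 were above equal levels, and the median log2 ratio was 0.70. Rrm2, a subunit of the enzyme that makes deoxynucleotides, was at 69.2 and 240.4 CPM, 3.47-fold higher (3.20 to 3.77). Tyms, another enzyme of nucleotide supply, was at 59.0 and 152 CPM, and the mitotic cyclin Ccnb2 at 68.6 and 167 CPM. The proliferation marker Mki67 was at 158 and 221 CPM, inside 2-fold.

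By cells, 34.2% (31.5 to 37.0) of anti-PD1 and 62.6% (61.4 to 63.8) of fusion CD8 T cells carried a UMI of at least 1 of 8 cycling genes at equal depth, against 16.0% and 17.9% in the IL15 superagonist and combination libraries. Macrophages, read the same way, were at 8.71% and 14.1%. Cycling and Gzmf went together in the anti-PD1 library, where cycling genes were found in 65.5% of the 55 cells with Gzmf and 32.6% of the others. In the fusion library the same shares were 65.6% and 60.4%. When cells with any UMI of the cycling genes were left out, at full and unequal depth, 580 anti-PD1 and 1444 fusion cells remained. Gzmf was then at 21.8 and 3270.4 CPM, a ratio of 150, and Gzmd, Gzme and Gzmc were at ratios of 65.7, 42.9 and 9.09. These ratios have no interval, and the low anti-PD1 level of Gzmf can rest on at most 83 cells, a count that includes cycling cells. At equal depth Gzmf was found in 2.49% of 762 anti-PD1 and 38.6% of 2470 fusion CD8 T cells without a cycling UMI. By cells the difference was thus far smaller than the ratio of 150. Without cycling cells Gzmb was 3.27-fold and Ifitm1 17.0-fold higher, so these differences were at least as large in cells not called cycling, except for Ifitm1.

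**Figure D3:**
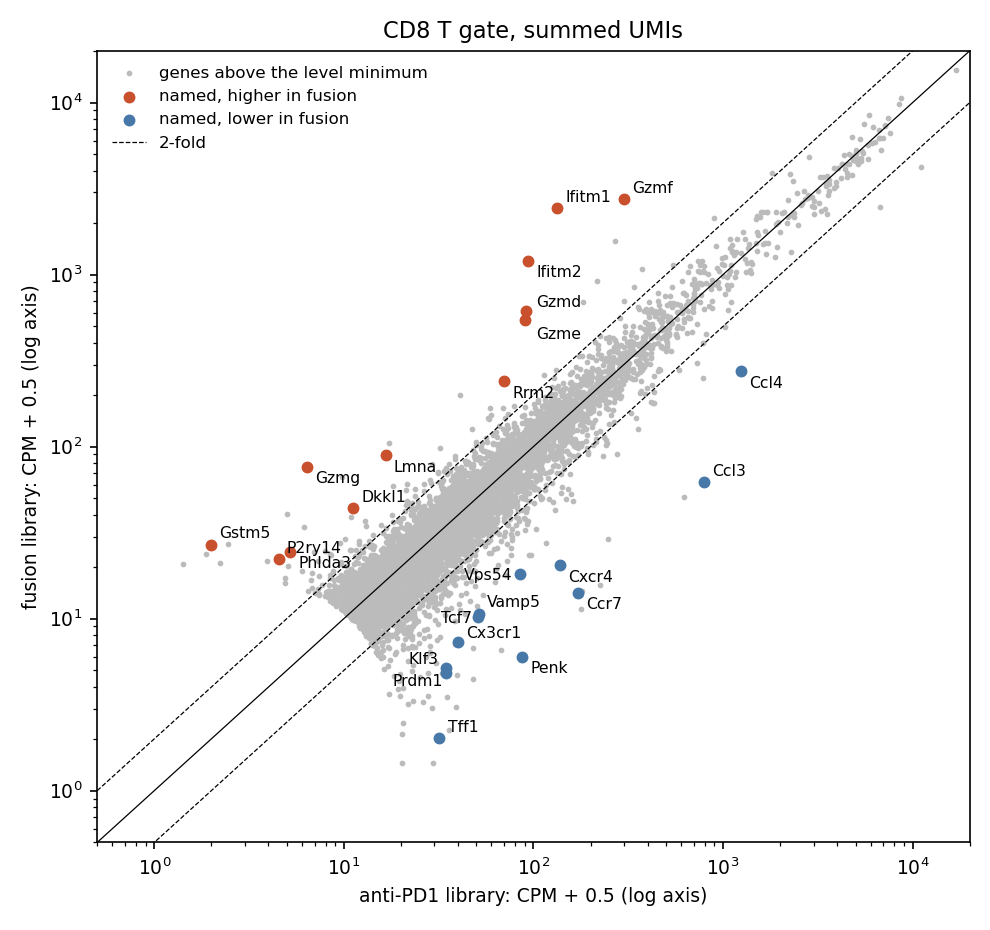
Level of each gene above the level minimum in CD8 T cells of the anti-PD1 library (horizontal) and the fusion library (vertical), as CPM + 0.5 on log axes, with the genes named by rule in orange (higher in fusion) and blue (lower). Dashed lines mark 2-fold. Ifitm1, Ifitm2 and Gzmf lie far above the diagonal, and Ccl3, Ccr7 and Penk far below it.

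Chemokine genes, which call in other immune cells, were lower. Of 13 tested members, 11 were at least 2-fold lower and 0 higher (median log2 ratio -2.19). Ccl3 was at 792 CPM with anti-PD1 and 61.7 CPM with the fusion, 12.8-fold lower (12.4 to 13.4). Ccl4 was at 1244 and 273 CPM, 4.56-fold lower (4.45 to 4.67), and Ccl5 at 6751.4 and 2460.6 CPM, 2.74-fold lower (2.72 to 2.77). For Ccl5 the IL15 superagonist and combination libraries had 9990.2 and 12146.1 CPM, so the fusion library was the lowest of the 4. Without cycling cells the Ccl5 ratio was 0.713.

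Xcl1, which attracts cDC1 cells, was at 314 and 292 CPM, a ratio of 0.931. Several of the lower chemokines are made mostly by myeloid cells, such as Ccl2, at 47.4 and 3.95 CPM, Ccl7, at 38.5 and 2.56 CPM, and Cxcl9, at 29.0 and 0.942 CPM. Myeloid transcripts in the CD8 T gate were lower in the fusion library as well. The summed level of 7 macrophage markers was 81.0 and 22.9 CPM, Lyz2 was at 116 and 26.9 CPM, and Cd74 at 624 and 50.2 CPM. In CD8 T cells with no UMI of Lyz2, Apoe, Csf1r or C1qa to C1qc, Ccl3 was at a ratio of 0.0674 and Ccl5 at 0.346. With cells that had such a UMI left out of the CD8 T and NK gates, 52 list medians were recomputed. Of these, 48 stayed the same within a set margin, 4 moved and 0 reversed. The chemokine list therefore kept its direction, which does not show how much of its shift remained. How much of the chemokine difference came from myeloid transcripts was not measured.

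Homing and stem-like genes were lower. Of 16 tested members of the stem-like, memory and egress list, 11 were at least 2-fold lower and 0 higher (median log2 ratio -1.47). Ccr7, the receptor that guides cells to lymph nodes, was at 170.5 and 13.7 CPM, 12.5-fold lower (11.5 to 13.6). Tcf7, the transcription factor of stem-like CD8 T cells, was at 50.6 and 9.76 CPM, 5.18-fold lower (4.58 to 5.86), and was found in 12.2% and 2.74% of cells at equal depth against 0.254% and 0% of macrophages. The egress receptor S1pr1 was 4.76-fold lower, the IL-7 receptor chain Il7r 3.38-fold and the factor Klf3 7.32-fold.

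Lef1, a partner of Tcf7, was at 28.0 and 32.2 CPM. Of 8 tested chemokine receptors, 4 were at least 2-fold lower and 0 higher (median log2 ratio -1.24). Cxcr4 was at 137 and 19.9 CPM, 6.91-fold lower (6.39 to 7.48), and Cx3cr1 at 39.5 and 6.80 CPM. Ccr7 and Tcf7 levels in the IL15 superagonist library, at 423 and 89.2 CPM, were above those of anti-PD1, so the fusion and the superagonist lay on opposite sides of anti-PD1.

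Among genes of inhibitory receptors and exhaustion, several were lower in the fusion library, and Pdcd1 was not. Pdcd1 (chr1:94038305-94052553), the gene of the receptor that both treatments bind, was at 537 and 842 CPM, a ratio of 1.57 (1.52 to 1.62), inside 2-fold. It was found in 56.5% and 76.7% of CD8 T cells at equal depth, and in 0.254% and 1.66% of macrophages. Lag3 was at 356 and 126 CPM, 2.83-fold lower (2.71 to 2.95), Tigit at 430.2 and 206 CPM, Ctla4 at 328 and 156 CPM, and Tox, a factor of exhausted T cells, at 155 and 69.0 CPM. Havcr2, which encodes TIM-3, was at 110.1 and 73.2 CPM. The receptor Cd160 was at 63.1 and 121 CPM, a ratio of 1.92, and was the highest of 8 members above equal levels, Pdcd1 included. Of 21 tested members, 8 were at least 2-fold lower and 0 higher (median log2 ratio -0.59). The factor Prdm1 was at 34.1 and 4.32 CPM, 7.90-fold lower (6.70 to 9.33).

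Genes of the IL-15 receptor and of STAT5 signalling had a median near that of all genes. Of 23 tested members, 3 were at least 2-fold higher and 2 lower (median log2 ratio -0.15). The receptor chains Il2rb and Il2rg were at ratios of 1.08 and 1.11. Il15ra, the chain specific to IL-15, was at 12.3 and 5.51 CPM, 2.23-fold lower (1.78 to 2.77), and was found in 3.02% and 1.41% of CD8 T cells at equal depth, no more often than in macrophages at 3.18% and 1.66%. The feedback inhibitor Cish was at 78.2 and 173 CPM, 2.21-fold higher (2.04 to 2.39), though 1.97-fold at equal depth. Socs2, of the same family, was at 4.48 and 40.3 CPM. The survival gene Bcl2 was at 70.5 and 119.9 CPM, inside 2-fold.

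Cytokine genes went both ways. Ifng was at 232 and 88.0 CPM, 2.63-fold lower (2.50 to 2.77), and Penk, which encodes an opioid precursor, at 86.7 and 5.51 CPM. Csf2, the growth factor of granulocytes and macrophages, was at 1.95 and 26.6 CPM, and Lta at 7.93 and 23.2 CPM. Tnf was at 19.5 and 33.4 CPM. Of 11 tested cytokine members, 2 were at least 2-fold higher and 3 lower.

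Some genes best known from NK cells were higher in fusion CD8 T cells. Klra5, an inhibitory Ly49 receptor, was at 0.920 and 20.4 CPM, Klrb1c, which encodes NK1.1, at 5.63 and 33.5 CPM, and the adaptor Fcer1g at 182 and 692 CPM. Tyrobp, another adaptor, was at 127 and 47.2 CPM. Of 11 tested NK-receptor members, 3 were at least 2-fold higher and 2 lower (median log2 ratio 0.49). The summed level of 8 NK markers in the CD8 T gate was 587 CPM with anti-PD1 and 533 CPM with the fusion.

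Other genes named by rule had known roles outside killing. Lmna, which encodes lamin A of the nuclear envelope, was at 16.1 and 88.9 CPM, 5.52-fold higher (4.67 to 6.58), beside 55.8 and 33.1 CPM in the IL15 superagonist and combination libraries. The glutathione transferase Gstm5 was at 1.49 and 26.4 CPM, the receptor gene P2ry14 at 4.02 and 21.6 CPM, Phlda3 at 4.71 and 24 CPM and Dkkl1 at 10.7 and 43.3 CPM. Lower genes were Tff1, at 31.4 and 1.52 CPM, Vamp5, at 50.8 and 10.2 CPM, and Vps54, at 84.3 and 17.6 CPM. Metabolic lists differed less. Of 23 oxidative phosphorylation genes none differed 2-fold (median log2 ratio 0.07), and of 18 glycolysis genes 3 were at least 2-fold lower, Hk2, Slc16a3 and Pfkfb3 (median -0.50). Of 20 immediate early and heat shock genes, which can respond to tissue digestion, 6 were at least 2-fold lower (median log2 ratio -0.38). The 12 housekeeping genes had a median of 0.22 and none differed 2-fold.

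**Figure D4:**
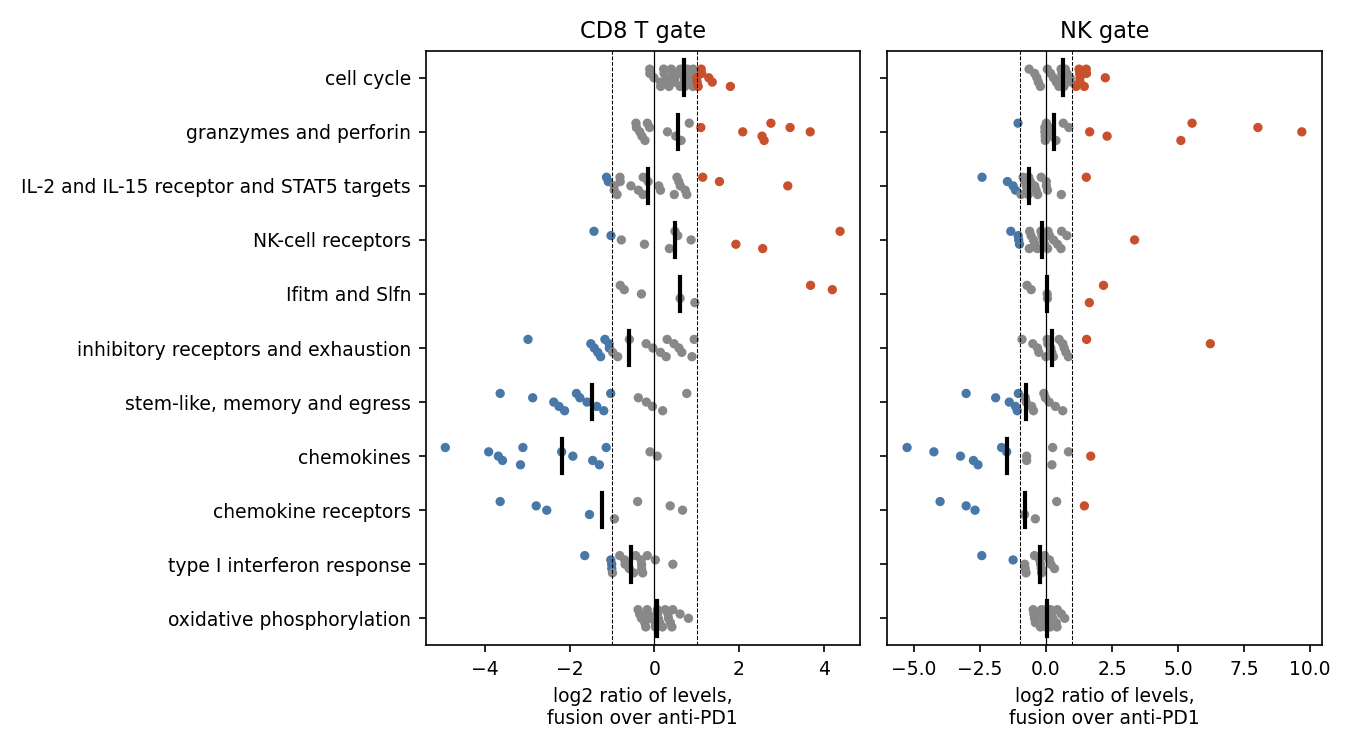
Log2 ratio of levels, fusion over anti-PD1, for each tested member of 11 gene lists in CD8 T cells (left) and NK cells (right). Orange and blue points are at least 2-fold higher or lower, and black bars are list medians. The chemokine median lies at -2.19 in CD8 T cells and -1.49 in NK cells, and the cell-cycle medians at 0.70 and 0.65.

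NK cells were few, 328 with anti-PD1 and 178 with the fusion, and showed the granzyme cluster and Pdcd1 in the fusion library. Of 6611 tested genes, 237, or 3.58%, were at least 2-fold higher and 432, or 6.53%, at least 2-fold lower (median log2 ratio -0.01). Gzmc was at 2119.8 and 10541.5 CPM, 4.97-fold higher (4.78 to 5.17), with 3199 anti-PD1 UMIs in 62 cells and 18.8% of them in 1 cell. Gzmd was at 30.5 and 1428.3 CPM, Gzme at 25.2 and 881 CPM and Gzmf at 7.29 and 1991.3 CPM. The Gzmf values rest on 11 UMIs in 3 anti-PD1 cells and 2055 UMIs in 50 fusion cells, 27.3% of them in 1 cell. The anti-PD1 values of Gzmd and Gzme rest on 46 and 38 UMIs in 4 cells each, with 52.2% and 65.8% in 1 cell.

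Gzmg had 0 UMIs with anti-PD1 and 283 with the fusion, 65.0% of them in 1 cell, which is at least 138-fold higher against 3 counts of the gate. At equal depth at least 1 of Gzmc to Gzmg was found in 16.2% (12.3 to 20.6) and 55.1% (47.4 to 62.5) of NK cells, beside 21.1% and 20.7% in the IL15 superagonist and combination libraries. Median UMIs per NK cell before thinning were 3394.5 and 4123.5. The main NK granzymes differed less. Gzma was at 8203.7 and 9344.9 CPM, Gzmb at 2400.8 and 3118.2 CPM and Prf1 at 628 and 616 CPM, at ratios of 1.14, 1.30 and 0.981. Of 18 tested members of the granzyme list, 6 were at least 2-fold higher and 1 lower (median log2 ratio 0.28).

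Pdcd1 was nearly absent from anti-PD1 NK cells and present in fusion NK cells. It had 8 UMIs in 4 cells with anti-PD1, or 5.30 CPM, and 435 UMIs in 58 cells with the fusion, or 422 CPM, 79.5-fold higher (40.0 to 185). The IL15 superagonist and combination libraries had 14 and 11.2 CPM. Klra5 was at 11.9 and 125 CPM, 10.5-fold higher (6.37 to 18.2), with 80.8 and 87.1 CPM in the IL15 superagonist and combination libraries. Its anti-PD1 value came from 18 UMIs in 6 cells. Ifitm1 and Ifitm2 were 3.12-fold and 4.53-fold higher.

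The NK gate is defined by Ncr1 without Cd3d or Cd3e, and other T-cell transcripts were checked in it. Cd3g was at 11.9 and 55.2 CPM, while Trbc1 was at 237 and 82.4 CPM, and the summed level of 8 T-cell markers was 696 CPM with anti-PD1 and 642 CPM with the fusion. With every NK barcode left out that had a UMI of Cd3g, Trac, Trbc1, Trbc2, Cd8a, Cd8b1 or Cd4, 95 anti-PD1 and 60 fusion cells remained. Pdcd1 then had 1 UMI and 90 UMIs, or 2.91 and 343 CPM. Gzmc was at 116 and 4306.4 CPM, with 40 of its 3199 anti-PD1 UMIs left, in 9 cells, so its ratio depended on these barcodes. Gzmd, Gzme and Gzmf had 0 UMIs in the anti-PD1 cells and 148, 144 and 106 UMIs in the fusion cells, at least 64.7-fold, 62.9-fold and 46.3-fold higher against 3 counts. These differences were therefore also present in NK cells with no detected T-cell UMI, though the bounds count UMIs and not cells. Macrophages of the fusion library, which should lack both genes, had Gzmf at 32.9 CPM and Pdcd1 at 8.96 CPM.

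NK cells had lower chemokine genes in the fusion library. Of 13 tested chemokines, 7 were at least 2-fold lower and 1 higher (median log2 ratio -1.49). Ccl3 was at 344 and 35.9 CPM, 9.59-fold lower (6.87 to 13.8), whereas Ccl5 was at 10010.8 and 11903.9 CPM. Myc was at 90.8 and 16.5 CPM, 5.51-fold lower (3.32 to 9.74), and Cxcr4 at 498 and 76.5 CPM, 6.50-fold lower (5.15 to 8.31). Irf2bp2 and Spry2, a brake on growth factor signalling, had 112 and 81 UMIs with anti-PD1 and 8 each with the fusion, and the heat shock gene Hspa1b had 41 and 1. Of 19 tested immediate early and heat shock genes 4 were at least 2-fold lower, Fosb, Ier3, Hspa1a and Hspa1b, and 1 was higher, Egr1 (median log2 ratio -0.40).

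Of 28 tested cell-cycle genes 9 were at least 2-fold higher and 0 lower in NK cells (median log2 ratio 0.65), and cycling cells were 13.4% (9.92 to 17.6) and 20.8% (15.1 to 27.5) at equal depth. In the inhibitory list Pdcd1 and Lag3, 2 of 17 members, were higher and 0 lower (median log2 ratio 0.22). In the STAT5 list 1 of 21 was higher, Ramp1, and 4 were lower, Myc, Osm, Pim2 and Ccnd2 (median log2 ratio -0.66), and Il2rb was at a ratio of 1.01 (0.934 to 1.09). Myeloid transcripts were also lower in fusion NK cells, with Cd74 at 1227.2 and 96.9 CPM and Il1b at 274 and 14.5 CPM. With barcodes carrying myeloid UMIs left out, 280 anti-PD1 and 154 fusion NK cells remained. The chemokine list median kept its direction, which does not show how much of its shift remained. How much of the lower chemokines came from myeloid transcripts was not measured.

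Macrophages, 1573 with anti-PD1 and 362 with the fusion, had fewer genes past 2-fold than the CD8 T and NK gates, though not fewer than the NK gate at equal depth, where 122 were higher and 317 lower in macrophages against 100 and 174 in NK cells. Of 6724 tested genes, 58, or 0.863%, were at least 2-fold higher and 113, or 1.68%, at least 2-fold lower (median log2 ratio -0.06). With ratios centred on that median the split was 69 and 86. Interferon-response genes were lower as a list, while Arg1, Ccl8 and the fatty acid binding proteins Fabp4 and Fabp5 were higher.

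Of 22 tested type I interferon genes, 5 were at least 2-fold lower and 0 higher, all 22 were below equal levels, and the median log2 ratio was -0.67. Rsad2, the antiviral protein viperin, was at 248 and 93.7 CPM, Ifit1 at 69.4 and 34.0 CPM, and Isg15 at 1013.1 and 671 CPM, inside 2-fold. Of 26 tested interferon-gamma response genes, 5 were at least 2-fold lower and 0 higher (median log2 ratio -0.50). Gbp2 was at 677 and 325 CPM, the T-cell attracting chemokine Cxcl9 at 971 and 504 CPM, a ratio of 0.519 (0.490 to 0.549), and Nos2, which makes nitric oxide, at 131 and 64.6 CPM. Cd274, which encodes PD-L1, was at 244 and 160.2 CPM. The activating Fc receptor Fcgr4, which binds antibody, was at 507 and 251 CPM.

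On the other side, Arg1, which breaks down arginine, was at 937 and 2054.6 CPM, 2.19-fold higher (2.12 to 2.26). The fatty acid binding proteins Fabp5 and Fabp4 were at 1505 and 4157.1 CPM and at 50.6 and 153 CPM. Apoe, which carries lipids, was at 2091.9 and 1442.2 CPM, and the lipid-sensing receptor Trem2 at 232 and 256 CPM, both inside 2-fold. The chemokine Ccl8 was at 934 and 2902 CPM, 3.11-fold higher (3.02 to 3.20), with 1926 and 871 CPM in the IL15 superagonist and combination libraries. The proton pump subunit Atp6v0d2 was at 11.0 and 56.4 CPM, the clotting factor F7 at 36.4 and 113 CPM, and the elastase Mmp12 at 137 and 380.2 CPM. Marco, a scavenger receptor, was called from 17 UMIs in 7 cells and 56 UMIs in 11 cells.

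Of 21 tested suppressive and tissue-repair genes, 5 were at least 2-fold higher and 2 lower (median log2 ratio 0.37). The 2 lower were Il10, at 36.4 and 14.6 CPM, and the vessel growth factor Vegfa, at 209.2 and 91.1 CPM. Of 17 tested inflammatory genes, 1 was at least 2-fold higher, Il1a at 89.8 and 217 CPM, and 3 were lower, Nos2, Il27 and Ptgs2. Lower genes by the rule were Cx3cr1, Bcl6, Hspa1b, Tgm2 and Cd72, of which Tgm2, a transglutaminase, was at 735 and 268 CPM, 2.74-fold lower (2.54 to 2.96). Jchain was named by the rule too, but all 366 of its UMIs came from 1 anti-PD1 barcode. Antigen presentation differed little. None of 11 MHC class II genes differed 2-fold (median -0.13), and H2-Ab1 was at 4567.7 and 4044.7 CPM.

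Granzyme transcripts were found in the macrophage gate of the fusion library, with Gzmc at 1.58 and 88.1 CPM and Gzmf at 0.226 and 32.9 CPM. The summed level of 8 T-cell markers in that gate was 20.7 and 44.8 CPM. Both are small beside the CD8 T cells of the same library, where Gzmf was at 2754 CPM, and the part of free RNA or joined cells in them was not tested.

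Monocytes, 1139 and 207 cells, were like macrophages in their interferon and Arg1 values. Of 6436 tested genes, 71, or 1.1%, were at least 2-fold higher and 194, or 3.01%, at least 2-fold lower (median log2 ratio -0.01). Of 22 tested type I interferon genes, 3 were at least 2-fold lower and 0 higher, and the median was -0.71 with all 22 below equal levels. Of 26 interferon-gamma response genes, 3 were lower and 0 higher (median log2 ratio -0.41). Cxcl9 was at 881 and 354 CPM, 2.49-fold lower (2.27 to 2.74), Gbp2 at 1295.7 and 475 CPM and Rsad2 at 319.9 and 129 CPM. The summed level of 7 macrophage markers in the monocyte gate was 2762 and 1892 CPM, and its part in these values was not tested.

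Arg1 in monocytes was at 360.0 and 1031.7 CPM, 2.87-fold higher (2.68 to 3.06). The cytokine Il1a was at 68.2 and 268 CPM, 3.93-fold higher (3.42 to 4.51), and Tnf at 273 and 657 CPM. The AP-1 factor Fosl1 was at 11.4 and 49.2 CPM, Ccl24 at 85.4 and 235 CPM and the tetraspanin Cd9 at 181 and 474 CPM. Spp1, which encodes osteopontin, was at 893 and 1976.5 CPM, 2.21-fold higher, but 1.39-fold at equal depth. Retnla was called from 1 fusion cell that held all its 54 UMIs.

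Lower genes in monocytes included stress genes. Hspa1a was at 233 and 55.2 CPM and Hspa1b at 71.4 and 15.1 CPM, with 39.7% and 45.0% of the fusion UMIs in 1 cell. Atf3, a stress-induced factor, was at 646 and 210.3 CPM, 3.07-fold lower (2.72 to 3.48), and Jun at 345 and 113 CPM. Of 20 immediate early and heat shock genes, 5 were at least 2-fold lower and 1 higher (median log2 ratio -0.44). Saa3, Tmcc3 and Gadd45g were named by the rule from 12, 12 and 32 fusion UMIs. Il15 itself, which monocytes make, was at 28.4 and 12.1 CPM, from 210 and 16 UMIs, and in macrophages at 16.7 and 13.4 CPM.

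The 2 myeloid gates differed in chemokines. Of 20 tested chemokines in macrophages 5 were at least 2-fold higher and 0 lower (median log2 ratio 0.41), and of 17 in monocytes 1 was higher and 5 lower (median -0.29). Ccl8, higher in macrophages, was above the level minimum in monocytes and more than 2-fold lower there in the fusion library. That value rests on few UMIs, 214 in 33 cells with anti-PD1 (50.9% of them in 1 cell) and 17 in 13 cells with the fusion. Ccl4 was at 1988.7 and 815 CPM in monocytes and 1921.4 and 1126.7 CPM in macrophages. The difference between the gates was not tested.

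**Figure D5:**
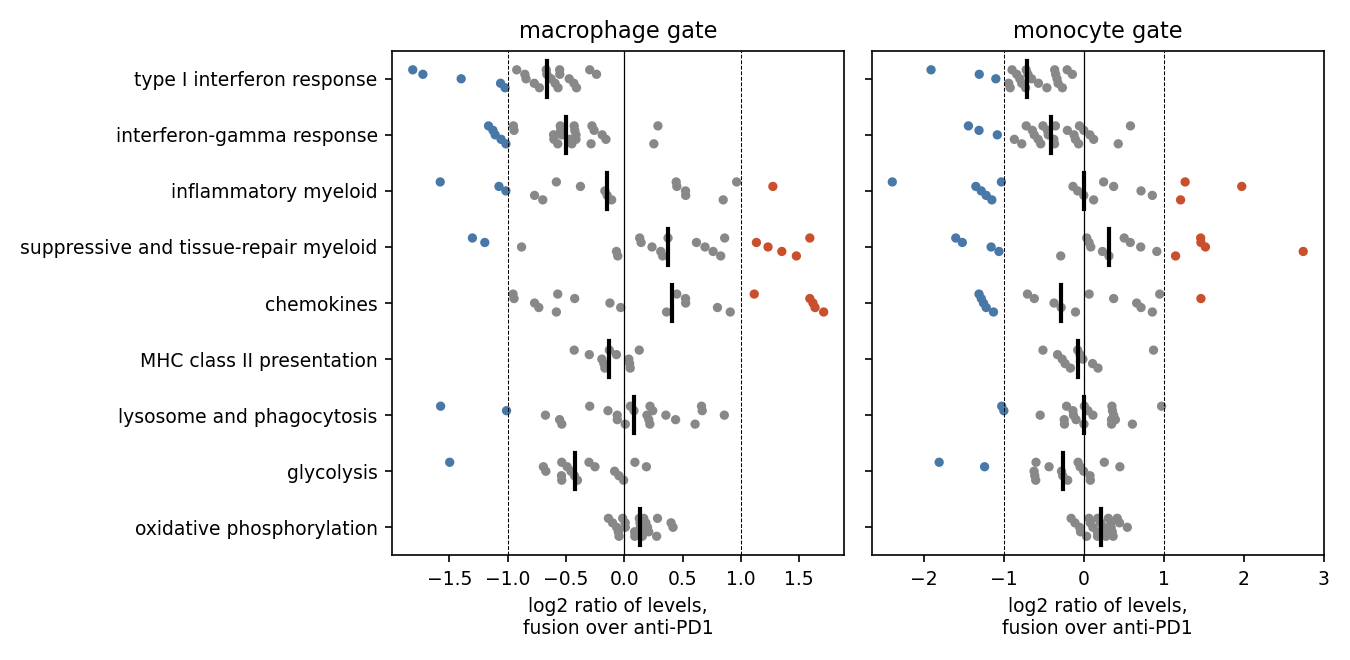
Log2 ratio of levels, fusion over anti-PD1, for each tested member of 9 gene lists in macrophages (left) and monocytes (right), with list medians as black bars and points at least 2-fold higher (orange) or lower (blue). All 22 type I interferon genes lie left of 0 in both gates, with medians of -0.67 and -0.71, while oxidative phosphorylation genes have medians of 0.13 and 0.21.

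In the gates with under 100 cells in a library only a fixed panel was read. CD4 T cells, 120 and 43, had Ifng at 7 and 77 UMIs, or 14.9 and 369 CPM, 24.7-fold higher (11.4 to 63.5), with 32.5% of the fusion UMIs in 1 cell, whereas it was lower in CD8 T cells. Mki67 was at 64.0 and 211 CPM and Pdcd1 at 429 and 834 CPM. Tcf7, at 173 and 52.7 CPM, and Ctla4, at 1197.2 and 489 CPM, were lower, as they were in CD8 T cells. The cDC1 gate, 95 and 30 cells, had Cxcl9 at 434 and 167 CPM, 2.60-fold lower (1.96 to 3.53) with 40.4% of the fusion UMIs in 1 cell, and Cd40 at 77.6 and 28.9 CPM, from 97 and 9 UMIs. Its higher genes Ccr7 and Il12b, which mark mature dendritic cells, rested on 1 fusion cell that held 82.1% and 93.5% of their UMIs. The Treg and cDC2 gates had 18 and 11 fusion cells, too few for gene levels, and were read for their shares.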

How the data were processed

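Deposited files hold raw UMI counts per gene and cell barcode, with no normalization by the authors, and Cell Ranger 2.1.1 and the mouse build mm10 are listed per the submitters' processing notes. How barcodes were filtered, which annotation was used and how reads matching several genes were treated were not given in the sources used here. Samples were assigned from their treatment labels. Counts were summed per gate and library and scaled to CPM with Python 3.11.15, numpy 2.4.6, scipy 1.17.1, pandas 2.3.3 and matplotlib 3.10.9. Gates needed 5 UMIs of C1qa to C1qc for macrophages, 2 of Ly6c2 and Chil3 for monocytes and 2 of Cd209a for cDC2. Monocytes also needed 5 UMIs of Lyz2, none of Cd3d, Cd3e or Ncr1, and under 2 each of Siglech and Cd79a. T and NK gates left out barcodes with 5 UMIs of C1qa to C1qc or 2 of Cd209a, Xcr1 or Csf1r. Mixed-lineage barcodes were set aside as likely doublets, no doublet caller was run, and doublets within a lineage remain. Genes were compared in gates of at least 100 cells per library, and gates of 20 to 99 cells were read for a panel. The named genes were those past 2-fold with at least 20 CPM in the higher library, ranked by the interval bound nearest 1, the first 12 each way in CD8 T cells and 6 in other gates. Gate markers, V, D and J and immunoglobulin genes, mitochondrial, ribosomal and unnamed genes, and genes at under 25% of their highest gate were left out of that ranking. Jchain was not excluded by it. Members of panels and lists were added. The gates, lists and members were chosen with earlier results of these data known. The scripts were tested on simulated data. Coordinates are those of GENCODE M21 on mm10. With 1 library per treatment no test was made, and intervals treat UMIs or cells as independent, which they are not.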

Additional observations from a re-analysis of the deposited data

How the results depend on the processing

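No paired analysis was possible because each treatment has 1 library, and for the same reason no replicate could be left out. Of 64 recomputed share ratios 54 moved by less than their interval. The CD8 T share ratio was 4.46 with the listed markers alone and 5.15 without barcodes of more than 2 times the class median UMIs. With the lymphoid or myeloid gates as denominator, ratios were 1.72 for CD8 T, 0.108 for CD4 T, 0.0330 for Treg, 0.164 for NK, 0.884 for monocytes and 0.336 for cDC2, and reversed to 1.12 for macrophages and 1.54 for cDC1, since that denominator leaves out the CD8 T cells. Counts of genes past 2-fold depended on the level minimum and on depth. Thinned to 2000 UMIs per cell, they were 222 higher in CD8 T cells, 100 higher and 174 lower in NK cells, 122 and 317 in macrophages and 140 and 405 in monocytes. At a mean of at least 50 CPM they were 46 and 77, 46 and 74, 20 and 27, and 17 and 52 in the same order of gates. With no minimum they were 599 and 1138 in CD8 T cells, 155 and 427 in macrophages and 150 and 511 in monocytes. In CD8 T cells 220 were higher without large barcodes and 211 with CPM averaged per cell. In NK cells 156 were higher without cycling cells, and 85 were higher and 143 lower without T-cell UMIs, a choice made after seeing the data, as were the checks without myeloid or lymphocyte UMIs. Of 845 recomputed ratios of single genes 512 stayed within their counting interval, 331 moved beyond it in the same direction or without a 2-fold call, and 2 reversed, both in NK cells, namely Il7r at a ratio of 1.13 when thinned and Csf2 at 3.29 without cycling cells. Of 536 recomputed list medians 510 stayed the same within a set margin, 26 moved and none was counted as reversed. Only medians past a set size could be counted as reversed, so a change of sign in lists near equal levels was not counted. Where the construction of an alternative does not show it, the cause was not tested. Low UMI numbers limit NK, monocyte, CD4 T and cDC1 values most.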

Other observations

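Spp1, which encodes osteopontin, was at 244 CPM in anti-PD1 NK cells and 1650.2 CPM in fusion NK cells, 6.77-fold higher (6.04 to 7.59). The number of NK cells behind these UMIs was not counted. Spp1 was also found in macrophages and monocytes, and the part of myeloid transcripts in the NK values was not tested. The adhesion receptor Itga1, known from tissue-resident lymphocytes, was at 11.3 and 56.2 CPM in NK cells, and the activating receptor Cd226 at 15.2 and 63.0 CPM. In CD8 T cells Itga1 was at 6.44 and 23.9 CPM, and the integrin chain Itga4, which takes part in leaving the blood, at 151 and 56.2 CPM. The lectin Lgals3 was at 375 and 1069.9 CPM in CD8 T cells.

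Of 14 tested members of a list of Treg function genes, 9 were at least 2-fold lower in fusion CD8 T cells and 0 higher, with a median log2 ratio of -1.07. Among them the transcription factor Ikzf2 was at 241 and 102 CPM and the chemokine receptor Ccr8 at 46.4 and 16.1 CPM. MHC class I genes differed less, with 2 of 18 tested members at least 2-fold lower, H2-T23 and Nlrc5, and a median of -0.38.

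In macrophages the growth factor response gene Socs2 was at 4.68 and 16.1 CPM, and the platelet factor Pf4 at 654 and 1416 CPM. Hmox1, which degrades heme, was at 828 and 1337 CPM and Spp1 at 1263 and 2141 CPM, both inside 2-fold.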
